A study of Mus musculus with 18 samples.

Results

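The glutathione transferases and glutathione peroxidases of the mouse prostate were taken by gene symbol, as every row that starts with Gsta, Gstm, Gstp, Gstt, Gsto, Gstk, Gstz, Mgst or Gpx and goes on with a digit, pseudogenes left out. The rule found 33 of 55469 genes, of which 25 were transferases and 8 were peroxidases, and it used no measured value. RNA-seq was made from total RNA of the ventral and lateral prostate lobes of male mice of the strain written C56NL/6N. There were 6 groups of 3 libraries: WT, KO and A537T mice at 10 weeks and the same 3 genotypes at 30 weeks. ELAC2 is the nuclease that trims the 3′ ends of precursor tRNAs in nucleus and mitochondria. WT mice carried Elac2+/+ and were matched littermates. KO mice lost an exon of Elac2 flanked by LoxP sites where the probasin promoter drove Cre (Pb-Cre), that is in prostate epithelium, so other cells of the gland kept the gene. A537T mice were homozygous for the Ala537Thr change in all tissues. Libraries keep the names of the tables. At 10 weeks, WT were 10AF, 11AF and 12AF, KO were 13AF, 14AF and 15AF, and A537T were 16AF, 17AF and 18AF. At 30 weeks, WT were 1AF, 2AF and 3AF, KO were 4AF, 5AF and 6AF, and A537T were 7AF, 8AF and 9AF. Both mutant lines of an age were compared with the same 3 WT libraries, whose reads differ between the 2 tables that hold them in 53.6 to 64.05% of genes with a read. RPM, RPKM and read counts of WT are those of the table shared with KO unless said otherwise, and normalized counts are those of each comparison's own table.

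Glutathione is the main small thiol of the cell. Transferases join it to electrophiles such as drugs and lipid peroxidation products, and peroxidases spend it to reduce hydrogen peroxide and lipid hydroperoxides to water and alcohols, after which glutathione reductase restores it with NADPH. The cytosolic transferases form the alpha (Gsta), mu (Gstm), pi (Gstp), theta (Gstt), omega (Gsto) and zeta (Gstz) classes, the kappa enzyme (Gstk1) sits in mitochondria and peroxisomes, and the microsomal enzymes (Mgst) are membrane proteins. Several peroxidases carry selenocysteine, which a UGA codon encodes, at the catalytic site. Silencing of the human pi-class gene GSTP1 by promoter methylation is a known mark of prostate cancer.

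The peroxidases split by their catalytic codon, which is shown because the 3 most abundant members of the family, Gpx3, Gpx1 and Gpx4, share it, while Gpx2, with the same codon, was rare. Each line gives coding bases from GENCODE transcripts (GRCm38), 5′ to 3′, with the catalytic codon in capitals.
Gpx1: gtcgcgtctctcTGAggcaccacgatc
Gpx2: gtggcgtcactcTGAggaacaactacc
Gpx3: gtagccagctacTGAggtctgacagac
Gpx4: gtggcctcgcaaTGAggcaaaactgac
Gpx5: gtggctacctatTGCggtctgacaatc
Gpx6: gtggcatccttcTGTggcctgacagct
Gpx7: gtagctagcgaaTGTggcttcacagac
Gpx8: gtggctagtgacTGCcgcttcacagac
The codon is TGA, annotated as selenocysteine, in Gpx1 (chr9:108339451-108339453, plus strand), Gpx2 (chr12:76795256-76795258, minus strand), Gpx3 (chr11:54907256-54907258, plus strand) and Gpx4 (chr10:80054737-80054739, plus strand). In Gpx5, Gpx6, Gpx7 and Gpx8 the codon at the same place is TGC or TGT, for cysteine.

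Levels between genes were compared as RPKM, that is reads per kb of exon scaled to the total of the library, from reads recovered out of the normalized counts. Gpx3, the secreted peroxidase of plasma, led with a mean RPKM of 157 over the 18 libraries, followed by Gstm1, the main mu-class enzyme, at 105. Gstm2 stood at 62.7, Gpx1, the general cytosolic and mitochondrial peroxidase, at 51.6, Gpx4, the phospholipid hydroperoxidase that guards against ferroptosis, at 42.4, and Gstp1 at 35.9. By group, Gpx3 ran from 121 ± 37.5 (SD, n = 3) in A537T at 10 weeks to 183 ± 10.6 in WT at 30 weeks. Gstm1 ran from 48.4 ± 0.596 in WT at 30 weeks to 254 ± 214 in A537T at 10 weeks, so in that group its spread was nearly as large as its mean. In KO at 30 weeks, Gpx1 (48.0 ± 15.9), Gpx4 (41.0 ± 15.95) and Gstp1 (38.0 ± 7.15) did not differ beyond their spread. Of the peroxidases with a cysteine codon, Gpx8, an enzyme of the endoplasmic reticulum, reached 16.3, while Gpx7, from the same compartment, reached 0.978. Gpx2, the peroxidase of the gut epithelium, carries selenocysteine and was at 0.441.

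**Figure D1:**
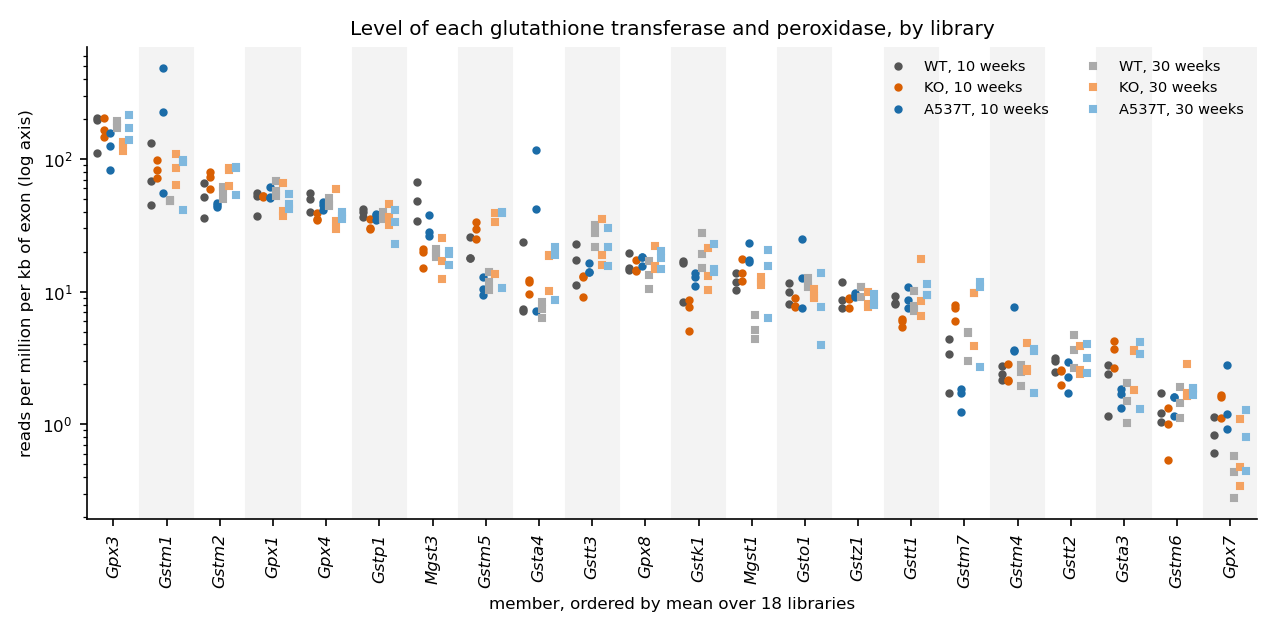
RPKM (log axis) of the 22 members with over 3 reads in every library, each point 1 library, coloured by group, circles for 10 weeks and squares for 30 weeks. Gpx3 and Gstm1 lead, and the A537T libraries at 10 weeks spread widely for Gstm1, Gsta4 and Gsto1.

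In all, 22 members had more than 3 reads in each of the 18 libraries. Gpx6 had no read in any, and a count of 0 allows up to 3 reads a library. Gsta1, Gstm3, Gstp3 and Gstt4 never passed 3 reads. Gpx5, the peroxidase of the epididymis, passed 3 reads in 2 libraries, with 7 reads in KO 6AF and 5 in A537T 7AF. Gsta2, Gsto2, Gstp2, Gpx2 and Mgst2 were low or at 0 in some libraries. Together the members took 885 RPM (reads scaled to the total of the library, without gene length) in WT 12AF, the lowest, and 1673 in A537T 18AF, the highest, with the peroxidases at 41.2% and the mu class at 27.8% of the total over all libraries.

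Recovered reads ran from 6569642 to 11225281 a library. Elac2 itself stood, in RPM, at 15.5 to 16.7 in WT and at 13.7 to 16.1 in KO at 10 weeks, and at 16.4 to 22.0 in WT and 10.3 to 18.4 in KO at 30 weeks. Those ranges overlap, and a count over the whole gene, in tissue where other cells keep it, does not check the excision. All 10 prostate luminal markers had reads in every group, and their share ran from 0.471% in KO 15AF to 14.7% in A537T 8AF and WT 1AF. At 10 weeks it was 3.69, 12.5 and 13.3% in WT 10AF, 11AF and 12AF and 3.85, 2.57 and 0.471% in KO 13AF, 14AF and 15AF. A537T had 7.89 to 10.4% at that age. By gene, 4 of the 10 had a higher and 6 a lower fitted mean in KO at 10 weeks. The part of luminal RNA in the member values was not tested. Markers of other tissues moved with the groups. The 20 skeletal muscle markers, each with reads in every group at 10 weeks, took 3.91 to 12.7% of WT reads at that age. KO libraries gave them 0.0585 to 2.05%, A537T libraries 1.55 to 4.36%. The share was at most 0.0724% at 30 weeks, when Pvalb was at 0 in WT. The 8 seminal vesicle markers, none at 0 in a group, took 4.64% and 1.76% in WT 10AF and 11AF but 0.000808% in 12AF. Their share at 10 weeks was 6.55 to 10.3% for KO mice and 0.0374 to 0.191% for A537T mice. At 30 weeks they took at most 0.000335% in WT, 8.53% and 6.32% in KO 4AF and 6AF, and 7.235% and 9.17% in A537T 7AF and 9AF. KO 5AF and A537T 8AF, with 7.13e-05% and 7.99e-05%, were like WT. In such bulk tissue, fewer cells of a type and less RNA per cell cannot be told apart.

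At 10 weeks, 7 members were lower in every KO library than in any WT library, with Mgst3 and Gstp2 furthest apart, and Gstm7 was higher in every one. Of the 24 members tested, 7 (29.2%) had KO values entirely under the WT values, against 14.3% of all genes tested. Entirely over them lay 1 (4.17%), against 11.7%. Gstp2, 1 of the 7, passed the minimum mean through WT, so it does not support the count of members below WT. The median log2 fold change was -0.32 over the members and -0.0061 over all 15089 genes. No member passed an adjusted p of 0.05 by limma, which called 0% of genes, though 2930 genes and 8 members had an unadjusted p under 0.05. EdgeR also called 0, and DESeq2 called 715 genes (4.75%), among them Mgst3 and Gstp2.

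Mgst3, a microsomal transferase with peroxidase activity on lipid hydroperoxides, stood at 300.3, 447 and 756 normalized counts in WT 10AF, 11AF and 12AF and at 162.4, 188.5 and 123.5 in KO 13AF, 14AF and 15AF. All KO libraries were lower than all WT libraries, and 12AF was the highest. The log2 fold change was -1.58 ± 0.34 (SE, 95% interval -2.39 to -0.77, adjusted p = 0.183 by limma, 0.00108 by DESeq2). Without WT 10AF, the WT library with the lowest share of skeletal muscle markers, it was -1.89 with an adjusted p of 0.0222 by limma. The order of the WT libraries was that of their skeletal muscle markers, 19 of which were lower in every KO library than in any WT library. With the muscle score as a covariate the Mgst3 change was -0.92 ± 0.51 (adjusted p = 1.00). The score was 12.5, 13.4 and 14.7 in WT 10AF, 11AF and 12AF and 5.08, 11.6 and 3.79 in KO 13AF, 14AF and 15AF. These did not overlap, so fits with the score in this comparison, also for the genes below, cannot separate muscle RNA from genotype. The part of the muscle RNA in the difference was not tested beyond that fit.

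Gpx4 was lower in every KO library as well, at 504, 493 and 448 normalized counts against 550, 737 and 993 in WT (-0.62 ± 0.22, adjusted p = 0.208). It was -0.40 without 12AF and -0.39 with the muscle score. Here too WT 12AF was the highest and 10AF lay nearest to KO. Gstt1, a theta-class enzyme, had 68.7, 67.9 and 70.9 in KO against 100.8, 106 and 147 in WT (-0.74 ± 0.20, adjusted p = 0.183). The KO libraries were close together and all under WT.
Gstp1 stood at 406, 377 and 349 in KO and at 524, 480 and 635.5 in WT (-0.53 ± 0.15, adjusted p = 0.183). Gsto1, the omega-class enzyme that reduces dehydroascorbate, had 116, 128 and 136 against 190, 171 and 170 (-0.48 ± 0.14, adjusted p = 0.183). Gstt2 had 78.2, 66.7 and 80.0 against 83.2, 112 and 130 (-0.51 ± 0.21, adjusted p = 0.260). In each of these genes KO and WT did not overlap.

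Gstm7, a mu-class enzyme, was the member with every KO library above WT at 10 weeks, at 94.5, 78.5 and 90.3 normalized counts against 56.7, 46.6 and 28.6 (1.03 ± 0.28, adjusted p = 0.183, and 0.0323 without 10AF, where it was 1.24, and 0.65 with the muscle score). WT 12AF, which had almost no seminal vesicle RNA, was the lowest of the 6, and 7 of the 8 seminal vesicle markers were higher in every KO library than in any WT library. Their part in the difference was not tested. Gstk1 overlapped, with 83.3, 103 and 56.0 in KO against 98.8, 207 and 258 in WT (-1.14 ± 0.40, adjusted p = 0.206). Its change was -1.55 without 10AF (adjusted p = 0.0248) and -0.32 with the muscle score. Without 10AF, 7 of the 24 tested members passed by limma: Gstt1, Gstt3, Gstm7, Mgst3, Gstk1, Gstp2 and Gpx4. In that fit 2840 of 15089 genes passed in all. Library 10AF was the WT library with the least muscle and the most seminal vesicle RNA. The WT libraries left, 11AF and 12AF, had skeletal muscle markers at 6.52% and 12.7% of reads, KO at most 2.05%. That fit therefore cannot separate genotype from the RNA of either tissue. Gstp2 passed the minimum mean through WT, so it does not support the count of 7.

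The other peroxidases overlapped with WT. Gpx1 had 558, 615 and 567 normalized counts in KO and 636, 647 and 557 in WT (-0.08 ± 0.12), and its value turned positive with equal library totals, at 0.13. Gpx3 had 2218, 2159 and 2774 against 2964, 3012 and 2070 (-0.16 ± 0.19, and 0.05 with equal totals). Gpx2 was low throughout, with 1.72, 10.5 and 3.43 against 4.89, 16.7 and 23.5 (-1.40 ± 0.78, adjusted p = 0.347, and 0.38 with the muscle score). Gstm1 and Gsta4, at -0.03 ± 0.29 and -0.17 ± 0.41, also overlapped with WT.

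**Figure D2:**
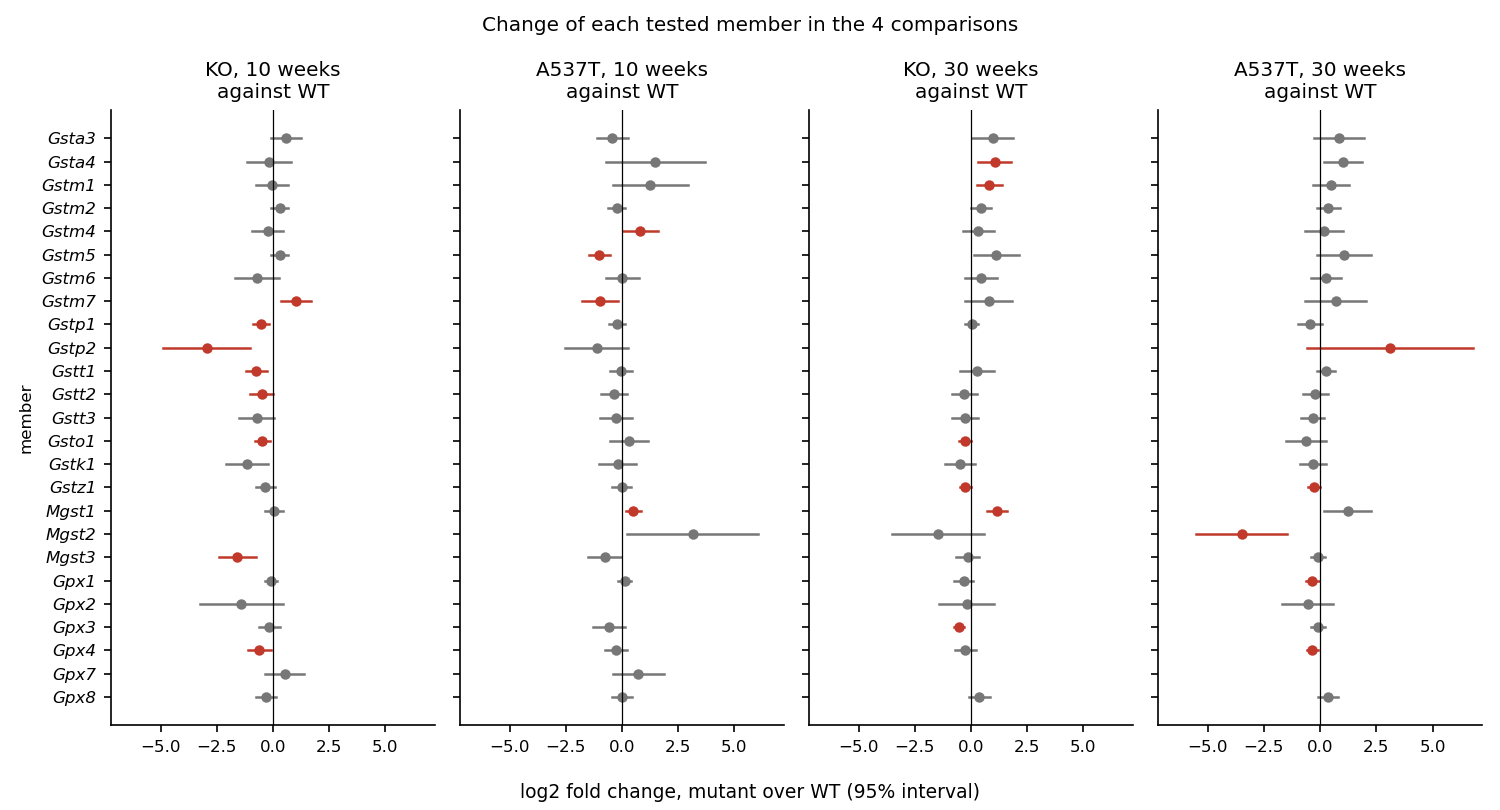
Log2 fold change (x axis) of each tested member (rows) in the 4 comparisons, with points for limma estimates and lines for 95% intervals, red where mutant and WT libraries did not overlap. Most intervals cross 0, and the widest belong to members of few reads, Gstp2 and Mgst2.

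At 10 weeks in A537T, 2 libraries had very high Gstm1 and Gsta4, while Gstm5 was low in all 3. Of the 24 tested members, 2 (8.33%) lay entirely above WT, against 5.58% of all genes, and 2 (8.33%) entirely below, against 6.34%. The median log2 fold change was -0.12 for members and 0.01 over all genes. By limma 0% of 15131 genes passed, with 973 genes and 6 members at an unadjusted p under 0.05. EdgeR called 0 genes, and DESeq2 90 (0.608%), of which 1 was a member, Gstm5.

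Gstm5, a mu-class enzyme known from brain and testis, stood at 107.5, 143 and 105 normalized counts in A537T and at 278, 201 and 243 in WT. All A537T libraries were lower. The log2 fold change was -1.02 ± 0.20 (95% interval -1.48 to -0.55, adjusted p = 0.746 by limma, 0.0223 by DESeq2), and it ran from -1.16 to -0.91 as each library was left out. Gstm7 followed, with 24.5, 17.1 and 23.2 against 57.0, 46.7 and 28.8 (-0.96 ± 0.34, adjusted p = 0.746). WT 12AF and A537T 16AF lay closest. The seminal vesicle markers, 6 of 8 of which had a lower fitted mean in A537T, did not separate these groups, as WT 12AF had the least. Their part in the Gstm5 and Gstm7 values was not tested.

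Mgst1, a microsomal transferase and peroxidase, was higher in every A537T library, at 303, 304.5 and 367 normalized counts against 241, 217 and 229 (0.50 ± 0.14, adjusted p = 0.746). Gstm4 was also separated, at 55.3, 53.3 and 102 against 30.0, 35.5 and 50.1 (0.82 ± 0.33, adjusted p = 0.746), and was 0.52 without 18AF. Library 18AF was the highest in both genes.

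Gstm1 stood at 729, 2895 and 5561 normalized counts in A537T 16AF, 17AF and 18AF and at 1537, 832 and 668 in WT. Libraries 17AF and 18AF were above every WT library, and 16AF was among the WT values. Gsta4, the alpha-class enzyme for 4-hydroxynonenal, had the same order, at 80.9, 457 and 1162 against 249.6, 78.7 and 98.0. The changes were 1.259 ± 0.71 for Gstm1 and 1.49 ± 0.93 for Gsta4 (adjusted p = 0.749 and 0.766), and without 18AF they were 0.61 and 0.63. With the muscle score they were -0.19 and -0.30. That score was 12.8, 12.3 and 10.9 in A537T 16AF, 17AF and 18AF and 12.6, 13.5 and 14.7 in WT 10AF, 11AF and 12AF. It was lowest in 18AF, where both genes were highest, so that fit cannot separate muscle RNA from other traits of that library. Gsto1 followed with 135, 222 and 396.5 against 199.9, 176 and 177, and Mgst2, an enzyme that can make leukotriene C4, with 17.02, 33.3 and 59.5 against 27.96, 0.865 and 0 (3.15 ± 1.24, adjusted p = 0.746, a size that depends on the pseudocount). Mgst2 passed the minimum mean there through A537T. Library 18AF was the highest of its group in all 4 genes, and it also had the highest shares of basal epithelial (0.0405%), smooth muscle (0.870%) and fibroblast (0.268%) markers of the 18 libraries. Whether those markers bear on the 4 genes was not tested.

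Gpx3 ran the other way within the group, at 2541, 1951 and 1167 in 16AF, 17AF and 18AF against 3067, 3059 and 2110 in WT (-0.59 ± 0.30, adjusted p = 0.749), with overlap. Gpx1, at 653, 643 and 693 against 643, 643 and 556, gave 0.11 ± 0.12. Gpx4 gave -0.27 ± 0.21 and Gstp1 -0.22 ± 0.15, both with overlap. Gpx2, at a mean under 10, was not tested, with 4.26, 6.66 and 12.1 in A537T and 3.11, 11.2 and 15.98 in WT.

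At 30 weeks, KO mice had more Mgst1 and less Gpx3 in every library, and 2 of the 3 KO libraries had high levels of a group of alpha and mu transferases. Of 23 tested members, 3 (13.04%) lay entirely above WT, against 7.92% of all genes, and 3 (13.04%) entirely below, against 8.41%. The median log2 fold change was 0.03 for members and -0.0067 for all genes. Limma called 0% of 14729 genes, with 1616 genes and 8 members at an unadjusted p under 0.05. EdgeR called 0 and DESeq2 285 genes (1.94%), of which Mgst1, Gpx3 and Gstm1 were members.

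Mgst1 stood at 226, 186 and 248 normalized counts in KO 4AF, 5AF and 6AF and at 92.5, 82.9 and 118 in WT. Every KO library was above every WT library, 5AF included, which had no more seminal vesicle RNA than WT. Library 5AF had more reads on adipocyte markers (0.04065% against at most 0.0127% in WT) and macrophage markers (0.0171% against at most 0.00986%). All 7 adipocyte markers had a higher fitted mean in KO, 1 of them without overlap. Their part in the Mgst1 values was not tested. The log2 fold change of Mgst1 was 1.17 ± 0.18 (95% interval 0.73 to 1.60, adjusted p = 0.238 by limma, 0.000407 by DESeq2). It ran from 1.06 to 1.31 as each library was left out and was 0.95 ± 0.23 with the seminal vesicle score. That score was 2.07, 0.415 and 1.15 in WT 1AF, 2AF and 3AF and 13.2, 0.671 and 12.8 in KO 4AF, 5AF and 6AF. Fits with it in this comparison, also for the genes below, therefore rest mainly on 5AF against WT. Gpx3 stood at 2193, 2005 and 1958 in KO and at 3109, 2918 and 2920 in WT, all KO libraries lower. Its change was -0.54 ± 0.09 (95% interval -0.76 to -0.32, adjusted p = 0.254 by limma, 0.000299 by DESeq2), -0.58 ± 0.12 with the seminal vesicle score, and between -0.59 and -0.51 with each library left out. Both passed by limma without 5AF, at adjusted p of 0.0146 and 0.0276, when 936 of 14729 genes passed. The KO libraries left, 4AF and 6AF, both carried seminal vesicle RNA and WT did not. That fit therefore cannot separate genotype from seminal vesicle RNA.

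Gstm1 had 1537, 767 and 1199 normalized counts in KO 4AF, 5AF and 6AF against 629, 676 and 623 in WT, with no overlap. The change was 0.80 ± 0.24 (adjusted p = 0.393 by limma, 0.0405 by DESeq2), and 0.30 ± 0.16 with the seminal vesicle score. Gsta4 had 223, 105 and 228 against 94.1, 74.9 and 82.2, again without overlap (1.06 ± 0.31, adjusted p = 0.392, and 0.37 with the score).
In Gstm5 the contrast among KO libraries was wider, at 474, 144 and 402 against 161, 123 and 134, so 5AF lay among the WT values (1.119 ± 0.43, adjusted p = 0.431, and 0.11 with the score). Gsta3 had 151, 64.6 and 148 against 79.6, 41.5 and 57.4, and Gstm7 had 150, 51.4 and 148 against 70.8, 73.7 and 42.6, both with 5AF among WT. Gstm2 had 1328, 867 and 1369 against 922, 786 and 847. All 8 seminal vesicle markers had a higher fitted mean in KO, none without overlap, and 4AF and 6AF, which carried them, were the high libraries in each of these genes. Beyond the fit with the score, their part was not tested. Without 5AF, 8 of the 23 tested members passed by limma (Gstm5, Gstm7, Mgst1, Gpx3, Gsta3, Gsta4, Gstm2 and Gstm1), with 936 of 14729 genes in all. Both KO libraries in that fit carried seminal vesicle RNA, so it cannot separate that RNA from genotype.

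The remaining separated members of KO at 30 weeks differed little in size. Gstz1, the zeta-class enzyme of tyrosine breakdown, stood at 369, 417 and 391 against 489, 435 and 486 (-0.26 ± 0.11, adjusted p = 0.440). Gsto1 stood at 171, 175 and 179 against 229, 206 and 196 (-0.26 ± 0.12, adjusted p = 0.470). Both pairs of groups were apart by a small gap.
Gpx1 had 508, 787 and 556 against 735, 706 and 859 (-0.33 ± 0.18), and Gpx4 488, 842 and 555 against 783, 729 and 673 (-0.25 ± 0.20). In both genes 4AF and 6AF were below WT and 5AF was not, and with the seminal vesicle score the changes were 0.01 and 0.17. Gpx2 had 8.61, 26.4 and 13.96 against 10.5, 25.3 and 18.8 (-0.20 ± 0.52). Gstp1 had 466, 584 and 537.4 against 549, 523 and 477 (0.03 ± 0.12, 95% interval -0.25 to 0.32).

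Gpx8 overlapped with WT in all 4 comparisons, and stood at 155, 190 and 148 normalized counts in KO against 158, 102.5 and 123 in WT at 30 weeks (0.38 ± 0.20, adjusted p = 0.519). Gpx7, its relative in the endoplasmic reticulum, passed the minimum at 10 weeks alone. Gstm6 ran from 8.002 to 47.0 and Gstm2, an abundant mu-class gene, from 577 to 1369 over the tables.

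**Figure D3:**
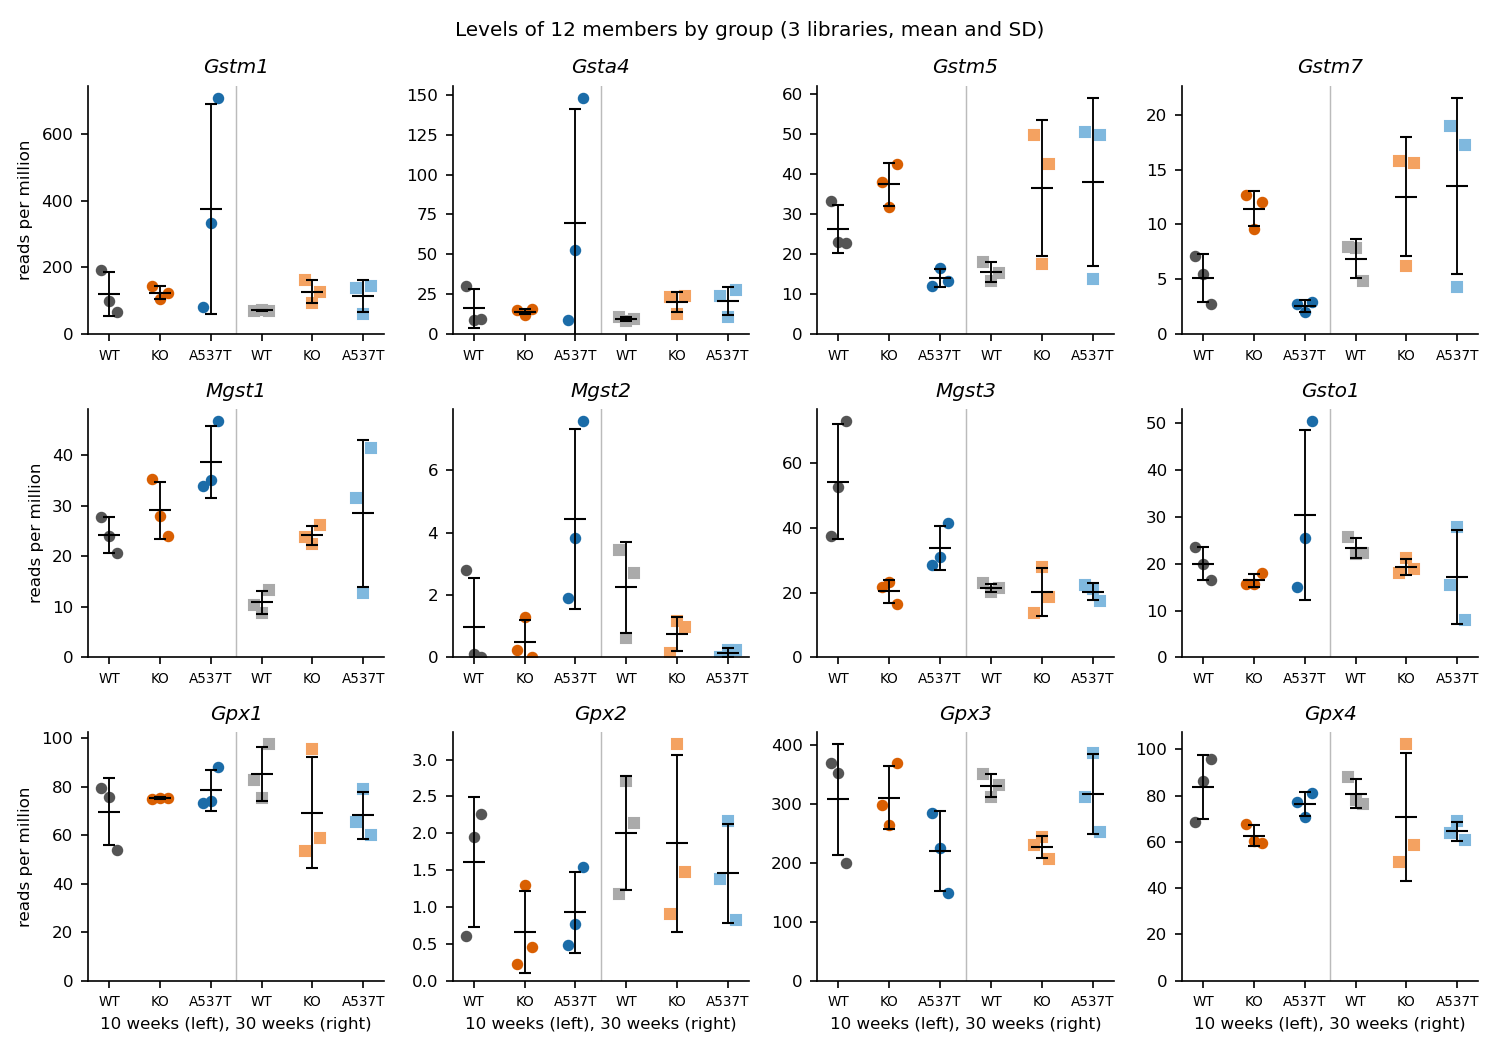
RPM (y axis, from 0) of 12 members in the 6 groups, each point 1 library, with black bars for mean and SD of 3 libraries, 10 weeks left of the grey line and 30 weeks right of it. KO Mgst1 and Gpx3 at 30 weeks are tight and apart from WT, whereas Gstm5 and Gstm7 have 1 low and 2 high libraries in each mutant group at 30 weeks.

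In A537T at 30 weeks, Mgst2 had at most 2 reads a library and Gpx1 and Gpx4 were slightly lower in every library. Of 24 tested members, 1 (4.17%) lay entirely above WT, against 9.18% of all genes, and 4 (16.7%) entirely below, against 9.4%. The member above was Gstp2, which passed the minimum mean of 10 through A537T 8AF, and Mgst2, among those below, passed it through WT, so neither supports these counts. The median log2 fold change was 0.05 for members and -0.0052 for all genes. Limma called 0% of 14789 genes, with 2016 genes and 6 members at an unadjusted p under 0.05. EdgeR called 0 and DESeq2 472 genes (3.19%), of which Mgst2 and Mgst1 were members.

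Mgst2 stood at 0, 1.93 and 2.19 normalized counts in A537T 7AF, 8AF and 9AF, from 0, 2 and 2 reads, and at 42.5, 8.03 and 32.7 in WT. All A537T libraries were lower, and the gene passed the minimum mean through WT, at a mean of 27.7 against 1.37. The log2 fold change was -3.49 ± 0.86 (95% interval -5.50 to -1.48, adjusted p = 0.253 by limma, 0.00494 by DESeq2), a size that depends on the pseudocount and was -1.78 with a pseudocount of 8. The same WT library 1AF had 30.6 normalized counts of Mgst2 in the table it shares with KO (38 reads against 53), where KO stood at 1.23, 9.55 and 9.30 (-1.48 ± 0.87, adjusted p = 0.557). In that comparison too Mgst2 passed the minimum mean through WT, at a mean of 20.0 against 6.69, so its lower value in KO adds no support.

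Gpx4 had 559.5, 581 and 568.5 normalized counts in A537T against 780, 725 and 671 in WT (-0.34 ± 0.10, adjusted p = 0.274). Gpx1 had 575, 667 and 561 against 739, 709 and 866 (-0.36 ± 0.12, adjusted p = 0.310, and -0.22 with the seminal vesicle score). Neither gene's groups overlapped, and A537T 8AF, with no more seminal vesicle RNA than WT, was on the low side of WT together with 7AF and 9AF. Gstz1 was also apart, at 372, 414 and 375 against 485, 432 and 484 (-0.27 ± 0.11, adjusted p = 0.342).
Gpx3, at 2738, 3269 and 2350 against 3106, 2913 and 2926, overlapped (-0.11 ± 0.13). Gpx2 had 12.1, 18.3 and 7.67 against 11.2, 26.4 and 19.8 (-0.56 ± 0.48). Gsto2, the second omega-class gene, lay entirely above WT at 5.02, 6.75 and 6.57 against 4.81, 4.59 and 3.96, from at most 7 reads a library, and was under the minimum for a test. The same WT libraries stood at 5.63, 5.76 and 4.95 in the table shared with KO.

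Mgst1 had 276, 108 and 387 normalized counts in A537T 7AF, 8AF and 9AF against 92.2, 82.6 and 118 in WT, so 8AF lay among WT (1.22 ± 0.44, adjusted p = 0.318 by limma, 0.0364 by DESeq2). With the seminal vesicle score the change was 0.23 ± 0.26. That score was 13.4, 0.612 and 13.8 in A537T 7AF, 8AF and 9AF and 2.05, 0.413 and 1.13 in WT 1AF, 2AF and 3AF. Fits with it in this comparison, also for the other genes, therefore rest mainly on 8AF against WT. In Gstm5 (444, 116 and 464 against 161, 123 and 134), Gsta4 (209, 92.5 and 255 against 93.8, 74.5 and 82.1) and Gstm1 (1220, 512 and 1345 against 653, 701 and 648) the order was the same, with 8AF within or below WT. The changes were 1.054 ± 0.51, 1.03 ± 0.36 and 0.50 ± 0.34, and -0.18, 0.20 and -0.31 with the score. Without 8AF, 7 of the 24 tested members passed by limma (Gstm5, Gstm7, Mgst1, Gsta3, Gsta4, Gstm2 and Gstm1), with 1207 of 14789 genes in all. Both A537T libraries in that fit carried seminal vesicle RNA, so it cannot separate that RNA from genotype. All 8 seminal vesicle markers had a higher fitted mean in A537T, none without overlap, and 7AF and 9AF carried them. Markers of plasma and B cells were also higher in all A537T libraries at 30 weeks, at 0.0455%, 0.104% and 0.0233% of reads in 7AF, 8AF and 9AF against at most 0.0116% in WT. All 4 tested markers lay above WT without overlap (median 2.23), as did 4 of 7 macrophage markers (median 1.01 over the 7). Their part in the Mgst2, Gpx1, Gpx4 and Gstz1 values was not tested.

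**Figure D4:**
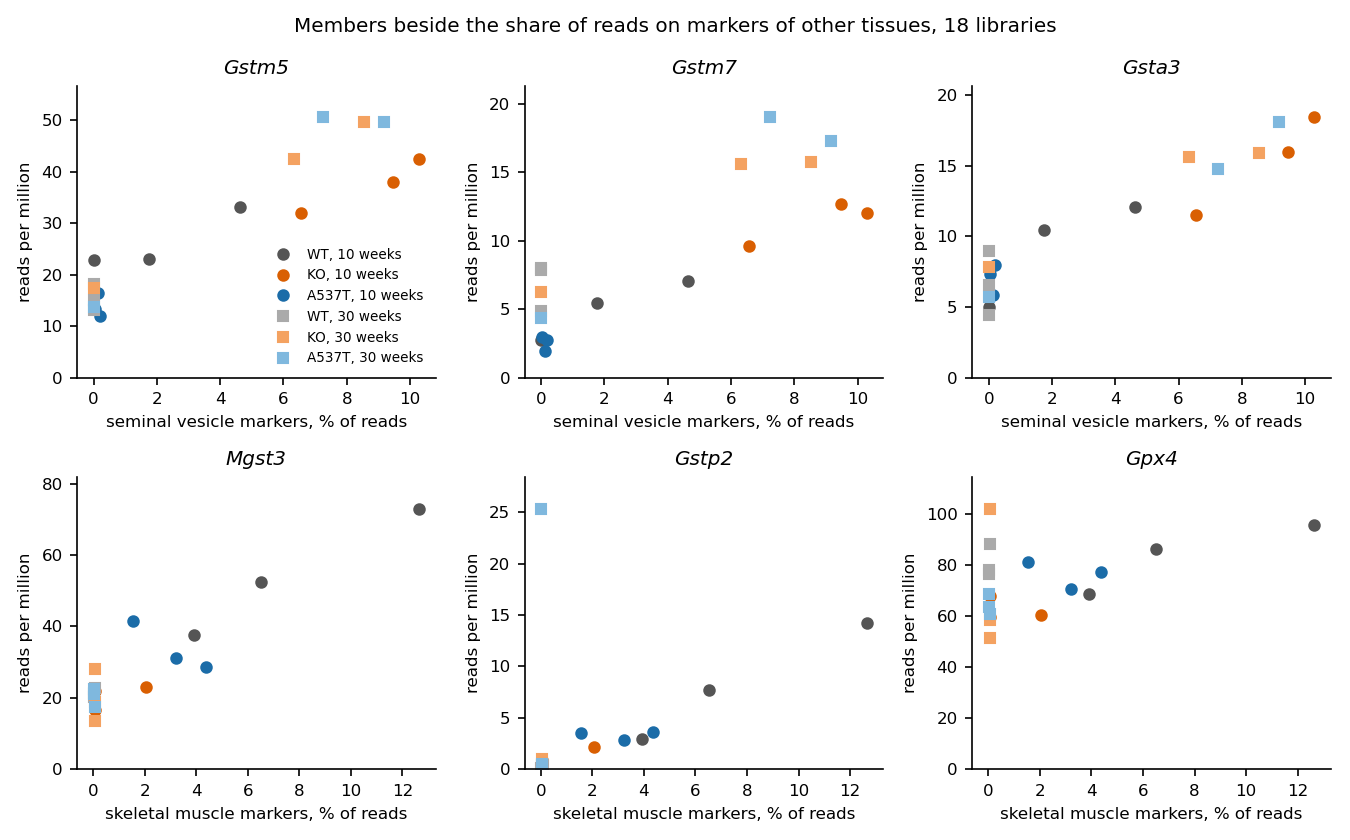
RPM (y axes, from 0) of Gstm5, Gstm7 and Gsta3 against the share of reads on 8 seminal vesicle markers, and of Mgst3, Gstp2 and Gpx4 against that on 20 skeletal muscle markers, each point 1 of 18 libraries, coloured by group. The 4 libraries of 30 weeks with seminal vesicle markers at 6.32% of reads or more are above the other libraries of that age in the upper genes, and Mgst3 is highest in WT 12AF, where muscle markers take 12.7%.

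Gstp1 and Gstp2 need to be read together, since their coding sequences differ at 12 of 630 bases and hold an identical run of 300 bases. The stretch with most differences is shown, coding bases 6 to 35, with the 5 differing bases in capitals (chr19:4037587-4037616 and chr19:4041905-4041934, minus strand, GRCm38, GENCODE transcripts).
Gstp1: AccAtacaccattgtctacttcccaGTtcG
Gstp2: GccGtacaccattgtctacttcccaAGtcC
Of all 50-base windows of the Gstp1 coding sequence, 70.9% are also in Gstp2, so the split of reads between them is uncertain. Gstp2 stood at 23.5, 65.8 and 147 normalized counts in WT 10AF, 11AF and 12AF and at 2.58, 17.6 and 6.86 in KO at 10 weeks (-2.95 ± 0.82, adjusted p = 0.183 by limma, 0.00740 by DESeq2). WT 12AF was the highest and KO 14AF the highest of KO, as for the muscle markers. The gene passed the minimum mean through WT, so it adds no support to the count of members below WT, and with the muscle score the change was -1.04 ± 1.09. The sum of both genes was 548, 545.5 and 782 in WT and 408, 395 and 355.5 in KO, still without overlap. At 30 weeks Gstp2 was at 0 to 9.30 in all libraries but A537T 8AF, where it reached 214, from 222 reads, or 41.65% of the sum, while Gstp1 was at its lowest there, 299.8. The sum in 8AF, 514, lay between those of 7AF and 9AF, 563.5 and 484. The log2 fold change of Gstp2, 3.10 ± 1.56 (adjusted p = 0.421), was 1.77 with a pseudocount of 8 and 1.2596 without 8AF. The same WT libraries held 15.6 to 15.9% more Gstp1 reads in the table shared with A537T than in that shared with KO, at 634, 603 and 551 against 549, 523 and 477 normalized counts. Gstp1 in A537T, 560.5, 299.8 and 480, gave -0.46 ± 0.23 (adjusted p = 0.411), and -0.20 without 8AF.

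**Figure D5:**
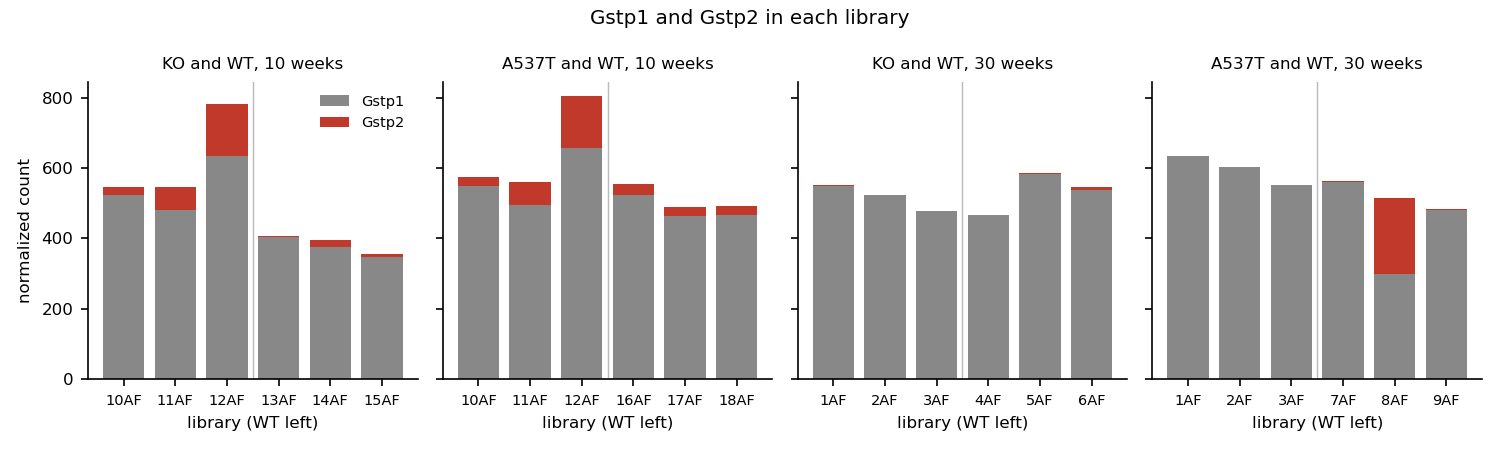
Normalized counts (y axis, from 0) of Gstp1 (grey) and Gstp2 (red) stacked for each library of the 4 comparisons, WT left of the line. In A537T 8AF at 30 weeks 41.65% of the stack is Gstp2, and WT 12AF has the most Gstp2 of the WT libraries, at 147 in the table shared with KO.

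The difference between the ages was tested for each line over 12 libraries. Limma called 0 of all genes for KO and 0 for A537T, with 1724 at an unadjusted p under 0.05 in each, and DESeq2 and edgeR were not run on it. The Mgst1 change in KO was 1.118 ± 0.25 higher at 30 weeks than at 10 weeks on the log2 scale (adjusted p = 0.234), and that of Mgst3 1.43 ± 0.43 higher (adjusted p = 0.299). In A537T the Mgst2 change was -6.63 ± 1.60 (adjusted p = 0.215), as the mutant libraries were mostly above WT at 10 weeks and below at 30 weeks. Gstm5 differed by 2.07 ± 0.60 (adjusted p = 0.257). Without WT 10AF, Mgst2 passed (adjusted p = 0.0459), with 11 genes in all. That library held nearly all Mgst2 reads of WT at 10 weeks. Mgst2 also passed the minimum mean through A537T at 10 weeks and through WT at 30 weeks. Such a filter favours opposite changes at the ages, so the Mgst2 result adds no support for a difference between them. Without 8AF, Gstm5, Gstm7 and Mgst1 passed, with 382 genes in all. The A537T libraries left at 30 weeks, 7AF and 9AF, had seminal vesicle markers at 7.235% and 9.17% of reads, WT at most 0.000335%. At 10 weeks these markers took at most 0.191% in A537T and up to 4.64% in WT. That fit therefore cannot separate a difference between ages from seminal vesicle RNA.

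Among the genes that make, recycle or complement glutathione, the cystine transporter gene Slc7a11 stood out in KO at 10 weeks. It ran from 12.2 to 22.5 normalized counts in WT and from 67.9 to 118 in KO, without overlap (2.25 ± 0.33, adjusted p = 0.183 by limma, 3.1e-05 by DESeq2). In that comparison, where 11.7% of all genes lay entirely above WT and 14.3% entirely below, 5 of the 22 tested genes of glutathione synthesis and breakdown (22.7%) lay above and 4 (18.2%) below, and the list's median was -0.11. Of 21 thioredoxin and peroxiredoxin genes 2 (9.52%) lay above and 7 (33.3%) below, with Msrb1, a selenoprotein that repairs oxidised methionine, at 253 to 357 against 446 to 936 (-1.10 ± 0.28, adjusted p = 0.183). Of the 5 genes of superoxide and peroxide removal, catalase (Cat) lay below, at 292 to 405 against 446 to 597. The 21 tested NRF2 targets gave 4 above, among them Slc7a11, and 2 below. Of 13 genes of selenoprotein synthesis 3 lay above and 1 below, led by Lrp2, the selenoprotein P receptor, at 75.6 to 172 against 5.10 to 37.2 (2.75 ± 0.67).

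In A537T at 10 weeks, 5.58% of all genes lay entirely above WT and 6.34% entirely below. Of the 22 tested genes of glutathione synthesis and breakdown 2 (9.09%) lay above and 3 (13.6%) below, with the leukotriene-cleaving gamma-glutamyl enzyme gene Ggt5 at 56.5 to 77.1 against 18.1 to 38.3 (1.31 ± 0.32, adjusted p = 0.746). The glutaredoxin gene Glrx was below, at 39.0 to 46.4 against 68.3 to 84.9 (-0.85 ± 0.20), and was 1 of 2 thioredoxin and peroxiredoxin genes below, beside 1 above. Slc7a11 was above, at 26.6 to 40.4 against 12.8 to 23.4 (0.72 ± 0.35), and it was 1 of 2 NRF2 targets above, with 0 below. Pstk, a kinase for selenocysteyl-tRNA synthesis, was 1 of 2 selenoprotein synthesis genes below, with 0 above. No gene of superoxide and peroxide removal was separated.

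At 30 weeks in KO, 7.92% of all genes lay entirely above WT and 8.41% entirely below. Of the 22 tested genes of glutathione synthesis and breakdown 0 lay above and 4 (18.2%) below, with Anpep, which cleaves the dipeptide left from glutathione, at 234 to 458 against 541 to 671 (-0.95 ± 0.25, adjusted p = 0.392). Prdx6, the peroxiredoxin that uses glutathione, was at 6280 to 6398 against 8138 to 12600 (-0.73 ± 0.17, adjusted p = 0.381 by limma, 0.00716 by DESeq2), 1 of 3 below among the 21 of its list, beside 2 above. Extracellular Sod3 was above, at 30.1 to 48.0 against 16.1 to 24.2 (0.98 ± 0.30). Of the 21 tested NRF2 targets 2 (9.52%) lay above and 3 (14.3%) below, with Osgin1 at 95.4 to 177 against 217 to 269 (-0.90 ± 0.23). Of the 13 genes of selenoprotein synthesis 2 lay above and 2 below. Lrp2, 1 of those above, passed the minimum mean through the KO libraries, so it does not support that count. It ran from 2.20 to 192 against 0 to 1.61 (5.02 ± 1.56, and 1.42 with the seminal vesicle score).

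In A537T at 30 weeks, 9.18% of all genes lay entirely above WT and 9.4% entirely below. Of the 22 tested genes of glutathione synthesis and breakdown 2 (9.09%) lay above, near that share, and 3 (13.6%) below, with Ggt5 at 48.2 to 134 against 9.90 to 28.1 (2.15 ± 0.51, adjusted p = 0.250 by limma, 0.00890 by DESeq2). Glrx was at 55.0 to 154 against 27.3 to 37.9 (1.67 ± 0.39, adjusted p = 0.248 by limma, 0.00342 by DESeq2), 1 of its list above beside 3 below. Sod3 was 1 of 2 above in its list, at 27.0 to 51.2 against 16.04 to 24.1 (0.93 ± 0.33). Of the 21 tested NRF2 targets 1 (4.76%) lay above and 5 (23.8%) below, with Osgin1 at 119 to 203 against 226 to 278 (-0.72 ± 0.21). Scly, which frees selenium from selenocysteine, was 1 of 3 below in its list with 0 above, at 112 to 124 against 143 to 155 (-0.36 ± 0.13).

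Enzymes related to the members but outside the naming rule had a median change of 0.31 for KO and 0.03 for A537T mice at 10 weeks. At 30 weeks the medians were 0.59 and 0.64. Alox5ap, the partner protein of leukotriene synthesis from the same membrane family as Mgst1 to Mgst3, lay above WT in KO at 10 weeks, at 110 to 165 against 9.18 to 81.2 (2.27 ± 0.70, adjusted p = 0.188). It did so again in A537T at 30 weeks, at 35.7 to 169 against 7.22 to 19.8 (2.82 ± 0.62, adjusted p = 0.227 by limma, 0.000179 by DESeq2). Hpgds, the sigma-class transferase that makes prostaglandin D2, was at 26.8 to 41.9 against 18.8 to 23.3 in KO at 30 weeks (0.64 ± 0.28). No list held a gene that passed by limma in any of the 4 comparisons.

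Across the 18 libraries the closest pattern to Gsta4 was that of Gstm1, and the reverse held too (Pearson r = 0.961 on log2(RPM + 1), over 8989 genes searched). All 18 points share their libraries and the high values of 17AF and 18AF, so r is a description. Gstk1 was most like Rmnd5a (r = 0.980), Gstt3 most like Med22 (0.981), Mgst3 most like Pkm (0.958), Gstz1 most like Cul4a (0.861), Gpx3 most like Syt10 (0.813) and Gstp1 most like Psma6 (0.692). Among the members themselves Gstt3 and Gstk1, at 0.929, and Gstm2 and Gstm7, at 0.929, came next.

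The antioxidant response element, to which NRF2 binds, has the core TGACNNNGC. It was searched on both strands of RefSeq promoters (GRCm38.p6, 250 bases before to 50 after each start), which were held for 31 of the 33 members. It was in 4 of the 31 members, while 13.99% of all genes had it, so the share in the members was near that of all genes. The 4 sites are printed with 10 bases on either side and the match in capitals, in Mgst1 as it reads on the gene's strand, where the match is on the other strand.
Gsta3: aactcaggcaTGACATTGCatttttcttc
Gstm5: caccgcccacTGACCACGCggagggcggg
Gstm7: tctgaagaccTGACAAAGCgaagccaatc
Mgst1: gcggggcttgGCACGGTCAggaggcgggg
They lie at chr1:21240454-21240482, chr3:107895802-107895830, chr3:107931725-107931753 and chr6:138140461-138140489, and the match begins at positions -121, -42, -129 and -56 from the start of transcription. A match of letters is not a binding site.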

How the data were processed

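The deposited tables hold signal values, that is read counts divided by a size factor for each library. Per the methods and the submitters' processing notes, the authors trimmed reads with Trim Galore 0.4.1 and cutadapt 1.18, aligned them to GRCm38 with STAR 2.7.3a, quantified them with Salmon and divided by size factors from DESeq2 1.26. The 4 tables were normalized separately, so ages are set side by side without a test of levels. Another 4 tables, of the authors' own fold changes and p-values, were not used. Column names give no genotype, age or replicate number and match no sample title. Their groups came from the tables, each named for 1 mutant line and age (the columns that both tables of an age share are WT), and from a list of libraries by group written for this work, not from a sample label. Each value was a whole multiple of 1 read, within 0.1 read, in at least 99.99% of genes, which gave back the reads.

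Libraries were compared with limma 3.58.1 on log2(normalized count + 1) for genes with a mean of at least 10 in the 6 libraries of a table, with Benjamini-Hochberg adjustment over all genes tested and a threshold of 0.05. The fold change understates low genes. Alternatives were DESeq2 1.42.0 and edgeR 4.0.16 on recovered reads, other pseudocounts and filters, equal totals, marker scores as covariates and leaving out each library. The tests were tried on simulated data. Symbols came from GENCODE vM21 for 54450 of 55469 identifiers exactly.

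Members and lists were chosen with earlier results of these data known. Genes were named by rule: the most abundant of each family, up to 6 separated members a comparison with the largest change, Gpx1 to Gpx4 and Gstp1, and the largest separated gene of each list; Gsta3, Gstm2, Gstm5, Gstm7, Mgst1, Mgst2, Gstk1 and Gstt3 are also given where the rule does not name them, after their values were seen. The gene most like Gsto1 is not reported here. No 2 libraries of a group agreed within sampling noise. The labels number the samples of a group without tying each to an animal, so p-values measure the spread between these libraries, which may in part be technical.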

Additional observations from a re-analysis of the deposited data

How the results depend on the processing

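No paired analysis was possible because the columns carry no replicate number. The limma count of genes was 0 in all 4 comparisons; DESeq2 on recovered reads called 715, 90, 285 and 472 genes (KO and A537T at 10 weeks, then at 30 weeks) and 2, 1, 3 and 2 members, while edgeR called 0. With no filter A537T at 10 weeks had 2 genes, and with the seminal vesicle score A537T at 30 weeks had 3. Leaving out 1 library gave 0 to 2840 genes and 0 to 7 members in KO at 10 weeks (2840 without 10AF, 185 without 14AF), 0 to 49 genes in A537T at 10 weeks (49 without 10AF), 0 to 936 genes and 0 to 8 members in KO at 30 weeks (without 5AF), and 0 to 1207 genes and 0 to 7 members in A537T at 30 weeks (without 8AF). For the difference between ages it gave 0 to 30 genes in KO (without 14AF) and 0 to 382 genes and 0 to 3 members in A537T (without 8AF). Where a mutant library was left out, 2 remained in the group.

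Of 788 recomputed values of named members, 725 kept their direction and side of the threshold, 20 passed it newly and 43 changed sign, none of which had passed. With equal totals, KO at 10 weeks gave 0.13 for Gpx1, 0.053 for Gpx3, 0.039 for Gsta4 and 0.18 for Gstm1, and A537T 0.118 for Gstz1; with muscle and seminal vesicle genes taken out of the totals these were 0.127, 0.048, 0.034, 0.175 and 0.018, and Mgst3 in A537T at 30 weeks was 0.0095. Equal totals moved the median of all genes by 0.208 for KO and 0.137 for A537T at 10 weeks, and without muscle and seminal vesicle genes by 0.203 in KO at 10 weeks and 0.105 in A537T at 30 weeks. The muscle score gave 0.38 for Gpx2 in KO, and in A537T -0.015 for Gpx1, 0.096 for Gpx4, -0.30 for Gsta4, 0.54 for Gstk1, -0.19 for Gstm1, -0.31 for Gsto1, 0.25 for Gstt3 and 0.12 for Gstz1. The seminal vesicle score gave, in KO at 30 weeks, 0.013 for Gpx1, 0.62 for Gpx2, 0.17 for Gpx4, 0.20 for Gstt3 and 0.23 for Mgst3, and in A537T 0.049 for Gpx2, 0.11 for Gpx3, -0.31 for Gstm1, 0.14 for Gsto1 and 0.014 for Gstt3. Leaving out 1 library turned Gsta4 (-0.50 to 0.32) and Gstm1 (-0.28 to 0.31) in KO at 10 weeks, Gstk1 (-0.59 to 0.089), Gsto1 (-0.088 to 0.68) and Gstz1 (-0.13 to 0.12) in A537T at 10 weeks, Gpx2 (-0.60 to 0.16), Gstp1 (-0.043 to 0.12) and Mgst3 (-0.35 to 0.069) in KO at 30 weeks and Gpx3 (-0.23 to 0.0055) in A537T at 30 weeks. The cause was not tested. With 3 libraries a group and 6569642 to 11225281 reads, members of few reads such as Mgst2 and Gstp2 are the least certain.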
